A study of Homo sapiens with 24 samples.

Results

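Gene expression was compared between sub-confluent and confluent SW872 cells that carried an empty vector. SW872 is an established human liposarcoma cell line. The members of the comparison were chosen by sample title: 3 libraries titled empty vector sub-confluent, here EVsub, and 3 titled empty vector, here EV, of the 24 libraries of the series. The genes followed were those with a mean of at least 5 counts over these 6 libraries, 19393 of the 60279 listed. Both groups were stably transduced with the same empty retroviral vector and kept as selected pools, so they share the vector, and neither carries a fusion or a mutant protein. The EV cells were collected 48 h after confluence. The protocol text in the labels names CAMTA1 as the exception to confluence, and the density of the EVsub cells rests on their titles and short descriptions. Poly(A) RNA was sequenced in 3 libraries of each group. Totals per library lay between 19700277 and 26984451 counts in EV and between 21947731 and 34960377 in EVsub. The labels name no batch, so density cannot be told apart from any difference in preparation or sequencing between the groups. Nor can it be told apart from the 48 h that the EV cells spent at confluence before collection. In these bulk samples, fewer cells of a kind and less RNA per cell cannot be told apart either.

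The label of the line was checked against markers. The mesenchymal genes VIM and FN1 were abundant, with 15244 to 37995 counts of VIM in a library. TWIST1 and PRRX1, of the same list, held only 46 to 96 and 6 to 19. Of the markers of mature fat cells, ADIPOQ had 0 counts in all 6 libraries, and FABP4 and CIDEA had at most 1. Other members of that list were expressed. LPL, a lipase that releases fatty acids, held 2157 to 5593 counts, PPARG 886 to 1575 and DGAT2 405 to 701. PTPRC, which marks leukocytes, had at most 1 count in a library, while LCP1 and CD14 of the leukocyte list held 31 to 85 and 19 to 40. The endothelial marker KDR held 281 to 1439 counts, and its list is described below.

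Contact between cells is read by the Hippo pathway, a kinase cascade. In dense cultures its LATS kinases phosphorylate the coactivators YAP and TAZ and hold them in the cytoplasm. In sparse cultures YAP and TAZ enter the nucleus and bind TEAD transcription factors, which switch on genes for growth, matrix and cytoskeleton. Dense cultures of many lines also leave the cell cycle, and the mitotic genes are held down by a repressor complex that binds a promoter element called the CHR.

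Promoters of 6 genes are shown, from the YAP/TAZ, mitotic and amino acid response groups that the results turn on. The motifs were chosen after the data were seen, and these windows were chosen because they hold a match. The sequences are RefSeq promoters on GRCh38.p14, each 300 bases from 250 before to 50 after the gene's RefSeq start, 5′ to 3′ on the gene's strand. The gene positions printed further below come from GENCODE and can begin elsewhere. By them the whole CHAC1 window and the marked letters of ASNS lie inside the gene. The capitals mark the TEAD motif CATTCC in ANKRD1 and CCN2, the CHR motif TTTGAA in ASPM and KIF14, and the amino acid response motif TGATGNAA in ASNS and CHAC1, on either strand.
ANKRD1 (chr10:90921038-90921337, minus strand): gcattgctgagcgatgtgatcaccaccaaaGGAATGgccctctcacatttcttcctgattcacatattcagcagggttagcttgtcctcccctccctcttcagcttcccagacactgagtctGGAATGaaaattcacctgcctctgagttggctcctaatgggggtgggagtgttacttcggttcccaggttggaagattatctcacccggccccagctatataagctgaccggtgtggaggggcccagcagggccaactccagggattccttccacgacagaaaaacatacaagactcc
CCN2 (chr6:131951323-131951622, minus strand): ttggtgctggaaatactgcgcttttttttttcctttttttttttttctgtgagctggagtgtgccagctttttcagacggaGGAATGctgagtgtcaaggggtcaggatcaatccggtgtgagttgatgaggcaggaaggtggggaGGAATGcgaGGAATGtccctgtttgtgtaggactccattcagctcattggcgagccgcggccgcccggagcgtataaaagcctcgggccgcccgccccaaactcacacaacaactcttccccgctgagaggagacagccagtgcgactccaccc
ASPM (chr1:197146620-197146919, minus strand): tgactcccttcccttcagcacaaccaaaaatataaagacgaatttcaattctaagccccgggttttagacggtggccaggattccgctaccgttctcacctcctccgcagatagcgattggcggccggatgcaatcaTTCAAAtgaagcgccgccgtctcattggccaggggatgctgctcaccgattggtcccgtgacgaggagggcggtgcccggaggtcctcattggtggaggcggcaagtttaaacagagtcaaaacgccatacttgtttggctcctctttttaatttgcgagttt
KIF14 (chr1:200620702-200621001, minus strand): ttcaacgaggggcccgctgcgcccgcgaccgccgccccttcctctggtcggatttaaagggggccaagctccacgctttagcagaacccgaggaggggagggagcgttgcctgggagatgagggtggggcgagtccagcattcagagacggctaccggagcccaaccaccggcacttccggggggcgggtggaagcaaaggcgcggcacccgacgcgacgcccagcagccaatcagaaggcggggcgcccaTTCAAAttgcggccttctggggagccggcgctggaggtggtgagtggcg
ASNS (chr7:97872359-97872658, minus strand): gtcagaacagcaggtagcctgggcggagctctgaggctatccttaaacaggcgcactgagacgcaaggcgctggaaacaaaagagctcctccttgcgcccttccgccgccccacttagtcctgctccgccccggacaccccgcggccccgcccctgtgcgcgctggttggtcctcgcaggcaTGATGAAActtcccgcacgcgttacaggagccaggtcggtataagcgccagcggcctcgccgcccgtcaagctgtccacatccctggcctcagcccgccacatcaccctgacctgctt
CHAC1 (chr15:40953221-40953520, plus strand): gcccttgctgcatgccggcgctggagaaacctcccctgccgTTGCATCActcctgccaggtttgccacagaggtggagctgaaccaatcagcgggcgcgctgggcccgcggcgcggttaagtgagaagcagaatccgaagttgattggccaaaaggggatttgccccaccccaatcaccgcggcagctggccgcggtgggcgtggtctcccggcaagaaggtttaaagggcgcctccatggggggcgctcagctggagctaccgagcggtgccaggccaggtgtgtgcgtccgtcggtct

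The TEAD letters began 220 and 128 bases before the start of ANKRD1, and 169, 104 and 95 bases before that of CCN2. The CHR letters began 113 bases before the start in ASPM and 1 base after it in KIF14. In ASNS the response letters began 68 bases before the start, and in CHAC1 209. The first window listed for each gene was used, and some genes have further ones. The first windows of AMOTL2, AXL and F3 held no CATTCC, though a second window of AMOTL2 and of AXL holds these letters and did not enter the counts. The first window of CENPE held no TTTGAA, and those of HMGCS1, IDI1 and MSMO1 held no TCACNCCAC. None of the matches shown overlapped a match of another motif searched. Of the first windows of 27305 genes, 14% held CATTCC on a strand, 15.4% held TTTGAA and 3.67% held TGATGNAA. Of the 12663 that belong to tested genes, the shares were 11.2%, 9.98% and 1.78%. Among the lists described here, CATTCC was in 7 of the 16 YAP/TAZ target promoters found in the table, TTTGAA in 31 of 44 mitotic promoters and TGATGNAA in 4 of 24 promoters of ATF4 response genes. In all 8 motifs were searched. The E2F motif TTTCCCGC was in 1.66% of all promoters and 11 of 41 of DNA replication genes, and the CArG box was in 1.29% of all and 8 of 32 of contractile genes. CCAAT stood in 35.7% of all promoters, in 15 of 18 of cholesterol genes and in 18 of 21 of histone genes. The sterol response motif TCACNCCAC was in 1.15% of all and 1 of 18 of cholesterol genes, and the AP-1 motif TGANTCA in 7.76% of all and 2 of 16 of YAP/TAZ targets. Among tested genes the shares were 2.51% for TTTCCCGC, 1.08% for the CArG box, 36% for CCAAT, 1.09% for TCACNCCAC and 4.87% for TGANTCA. All these counts describe letters in a window and were not tested.

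Sub-confluent cells differed from confluent cells in 7377 of 19393 genes, or 38.0%, by the quasi-likelihood test of edgeR with a Benjamini-Hochberg threshold of 0.05. Genes past it are described as called. Of them 3926 were higher in EVsub, 20.2% of genes tested, and 3451 were lower, 17.8%. The counts given for each gene list are to be read against these shares. With libraries scaled by total counts in place of trimmed mean of M-values (TMM), the split was 3111 higher and 4294 lower. Most changes were small: 575 of the called genes were at least 2-fold higher and 831 at least 2-fold lower. The median log2 fold change of all genes was -0.0176. In 10448 genes, 53.9% of those tested, the 3 EV and 3 EVsub libraries did not overlap. Lack of overlap was thus common, and the genes named by rank were chosen for it. The Euclidean distance between profiles was 88.0 ± 8.56 log2 units between EV and EVsub libraries (SD, 9 pairs), against means of 54.4 within EV and 51.6 within EVsub (3 pairs each).

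The YAP/TAZ targets were examined first. Of 22 genes in the list, 14 rose in EVsub, 3 fell and 5 were not called, and their median log2 fold change was 0.70. ANKRD1, a nuclear and sarcomeric ankyrin repeat protein (ENSG00000148677, chromosome 10, 90912096 to 90921087, minus strand, GRCh38), was counted at 1.597, 0.830 and 0.815 CPM (counts relative to the TMM-scaled library size) in EV replicates 1 to 3 and at 23.9, 12.98 and 19.3 CPM in EVsub. Every EVsub library stood above every EV library. Its log2 fold change was 4.08 (SE 0.39, edgeR adjusted p = 2.72e-07). CCN2, a secreted matricellular protein also called CTGF (ENSG00000118523, chromosome 6, 131948176 to 131951372, minus strand, overlapping 1 gene on the other strand), stood at 26.8, 20.5 and 16.3 CPM in EV and at 109, 83.4 and 123 CPM in EVsub (log2 change 2.31 with SE 0.20 and edgeR adjusted p = 5.66e-08). CCN1, its paralog CYR61 (ENSG00000142871, chromosome 1, 85580761 to 85584589, plus strand), stood at 44.7, 41.9 and 35.5 CPM in EV and at 104, 89.1 and 112 CPM in EVsub (log2 change 1.32 with SE 0.11 and edgeR adjusted p = 5.66e-08). The groups did not overlap for either gene. F3, which encodes tissue factor, rose from 6.30 ± 0.526 to 15.6 ± 1.53 CPM (SD, n = 3), and AXL, a receptor tyrosine kinase, from 87.8 ± 1.79 to 201 ± 29.7 CPM. The 3 that fell were IGFBP3, RBMS3 and ARHGEF17, named after their values were seen, with log2 fold changes of -0.87, -0.50 and -0.28. Without EV replicate 2 or EVsub replicate 1, 2 or 3, 1 of the list was called lower. The call of ARHGEF17 was lost with offsets for exon GC content (0.0046, edgeR adjusted p = 0.972).

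**Figure D1:**
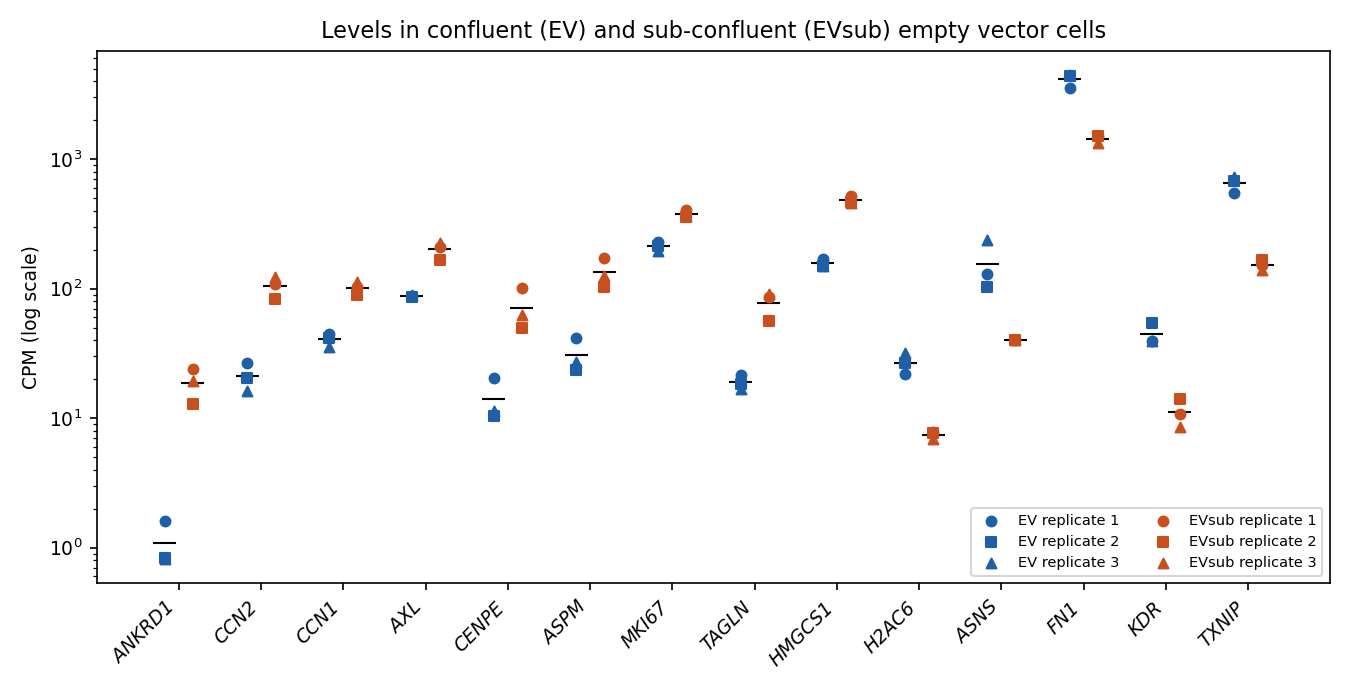
Level of 14 genes in CPM (log axis) in each library, with EV in blue and EVsub in orange, markers for replicates 1 to 3 and a black bar at the mean of each group. For each gene shown, picked from the genes named in the text, the 3 libraries of a group lie on one side of those of the other, with ANKRD1 between 0.815 and 1.597 CPM in EV and between 12.98 and 23.9 CPM in EVsub. Such separation was seen in 53.9% of all genes tested.

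The upstream kinases and adaptors of the pathway were next. Of 25, 8 rose, 3 fell and 14 were not called, with a median log2 fold change of 0.21. AMOTL2, an angiomotin that binds YAP and is itself a YAP/TAZ target, rose and stood at 20.8 ± 0.504 CPM in EV and 45.4 ± 5.08 CPM in EVsub (log2 change 1.13 with SE 0.10 and edgeR adjusted p = 2.02e-07). WWC2, a scaffold of LATS, rose by a log2 fold change of 0.64, and DCHS1, an atypical cadherin upstream of the kinases, fell by 0.62 on the log2 scale. MOB1B, a coactivator of LATS, was called higher (0.89), a call that was lost with those offsets (0.28, edgeR adjusted p = 0.0538). LATS2 stood at 10.7 ± 0.550 CPM in EV and 12.5 ± 0.834 CPM in EVsub and was not called (edgeR adjusted p = 0.157), though its groups did not overlap. With GC offsets it was called higher, just under the threshold (log2 fold change 0.33, edgeR adjusted p = 0.0498).

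The coactivators themselves differed little. WWTR1, which encodes TAZ, stood at 226, 201 and 182 CPM in EV and at 219, 209 and 226 CPM in EVsub (log2 change 0.10 with SE 0.08 and edgeR adjusted p = 0.353). YAP1 stood at 142, 125 and 115 CPM in EV and at 170, 132 and 156 CPM in EVsub. The groups overlapped for both genes. The difference in YAP1 was called (log2 change 0.26 with SE 0.10 and edgeR adjusted p = 0.0411), and that call was lost with GC offsets, under total-count scaling, under both other filters on low counts, and without EV replicate 2 or 3 or EVsub replicate 1 or 3. Among 8 tested TEAD factors and cofactors, 2 rose, YAP1 among them, and 3 fell. The number called higher was 4 without EV replicate 1 and 1 without EV replicate 2 or 3 or EVsub replicate 1 or 3. TEAD4 rose from 22.1 ± 0.779 to 31.1 ± 2.14 CPM, and VGLL4, a cofactor that competes with YAP for TEAD, fell from 29.5 ± 1.38 to 20.9 ± 1.65 CPM. TEAD2 and TEAD3 were called lower, by 0.45 and 0.42 on the log2 scale, and lost the call with GC offsets. TEAD1 was not called (log2 change 0.28 with SE 0.13 and edgeR adjusted p = 0.0891).

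Cell cycle genes rose together in sub-confluent cells. Of 50 mitotic genes, 48 were called higher and none lower, with a median log2 fold change of 0.83, and of 46 DNA replication genes 33 were called higher and none lower, with a median of 0.56. CENPE, the kinesin that moves chromosomes to the spindle equator (ENSG00000138778, chromosome 4, 103105349 to 103198445, minus strand), stood at 20.5, 10.4 and 11.4 CPM in EV and at 100.4, 50.1 and 63.0 CPM in EVsub (log2 change 2.33 with SE 0.38 and edgeR adjusted p = 7.02e-05). ASPM, a spindle pole protein (ENSG00000066279, chromosome 1, 197084121 to 197146694, minus strand, overlapping 1 gene on the same strand), stood at 41.9, 23.5 and 27.3 CPM in EV and at 173, 104 and 124 CPM in EVsub (log2 change 2.11 with SE 0.32 and edgeR adjusted p = 3.64e-05). In both genes replicate 1 was the highest of its group, and no EV library reached the lowest EVsub library. KIF14, a kinesin of cytokinesis, and ANLN, an actin-binding protein of the cleavage furrow, rose by log2 fold changes of 1.76 and 1.59. MKI67, the gene of the Ki-67 proliferation antigen, rose from 213 ± 17.4 to 378 ± 26.7 CPM, and CCNB1, the mitotic cyclin B1, from 363 ± 21 to 593 ± 23.2 CPM. Of the replication genes, CLSPN, a checkpoint adaptor, rose from 24.1 ± 4.401 to 54.2 ± 4.54 CPM, RRM2, a subunit of ribonucleotide reductase, from 117 ± 5.33 to 257 ± 10.99 CPM, and CCNE2, cyclin E2, from 3.80 ± 0.886 to 12.3 ± 0.969 CPM. MCM2, a subunit of the replicative helicase, was not called (216 ± 7.24 against 262 ± 14.3 CPM, edgeR adjusted p = 0.252), though its groups did not overlap. It was called higher with GC offsets (log2 fold change 0.46, edgeR adjusted p = 0.0321).

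Genes that set entry into the cycle were mixed. Of 16 D cyclins, CDK inhibitors and pocket proteins, 6 rose and 1 fell, a call lost without EV replicate 1 or EVsub replicate 3. Only 3 were called higher under total-count scaling and without EV replicate 2 or EVsub replicate 1 or 3. CCND1, cyclin D1, rose from 121 ± 14.9 to 212 ± 36.9 CPM (log2 change 0.81 with SE 0.12 and edgeR adjusted p = 2.48e-05). CDKN2B, an inhibitor of its kinase, rose as well (log2 fold change 0.98), and so did RBL1, a pocket protein (0.95). The CDK inhibitor CDKN1B stood at 59.7 ± 3.16 CPM in EV and 56.5 ± 4.39 CPM in EVsub and was not called (edgeR adjusted p = 0.616). With GC offsets it was called lower (-0.31) and CDKN1A higher (0.44). CDKN1A and CDKN1C were not called (edgeR adjusted p = 0.254 and 0.176). Of 25 p53 targets, 3 rose and 7 fell. With GC offsets 7 were called higher and 6 lower, with the 6 libraries alone 6 and 7, and 1 was called higher under total-count scaling or without EV replicate 2. Those that fell included BTG2, an antiproliferative gene, from 38.2 ± 3.59 to 15.3 ± 1.47 CPM, and BBC3, which encodes the death protein PUMA, from 15.3 ± 1.45 to 6.48 ± 0.633 CPM.

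Replication-dependent histone genes went against the other replication genes. Their mRNAs end in a stem-loop and normally carry no poly(A) tail, so a poly(A) library sees chiefly the polyadenylated forms. Of 55 listed genes 21 passed the filter on low counts, and of these 17 fell in EVsub and none rose, with a median log2 fold change of -1.2. H2AC6, a histone H2A gene (ENSG00000180573, chromosome 6, 26124145 to 26139116, plus strand, overlapping 1 gene on the same strand), stood at 21.8, 26.8 and 31.8 CPM in EV and at 7.81, 7.67 and 6.90 CPM in EVsub (log2 change -1.84 with SE 0.29 and edgeR adjusted p = 4.14e-05). H2BC21, a histone H2B gene, stood at 18.4, 18.6 and 30.4 CPM in EV and at 5.26, 6.96 and 5.55 CPM in EVsub (log2 change -1.93 with SE 0.32 and edgeR adjusted p = 7.23e-05). EV replicate 3 was the highest library for both, and every EV library lay above every EVsub library. The summed level of the 21 genes was 113 to 156 CPM in EV and 54.9 to 57.5 CPM in EVsub. Histone genes have near-identical copies, so single genes are uncertain. Where a mean of 50 counts was required, 9 genes were tested and all 9 were called lower. SLBP, whose protein binds the histone stem-loop, rose from 59.0 to 87.1 CPM (log2 change 0.56 with SE 0.13 and edgeR adjusted p = 0.00201), and was named after its value was seen.

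Genes of ribosome assembly and genes of the ribosome itself differed in direction. Of 35 ribosome biogenesis genes 20 rose and none fell, with a median log2 fold change of 0.33. NOP58, a core protein of box C/D ribonucleoproteins, rose from 51.6 ± 10.1 to 128 ± 15.4 CPM, though it overlaps 5 annotated genes on both strands. LYAR rose from 29.1 ± 2.64 to 52.97 ± 3.15 CPM, and DDX21, a nucleolar helicase, from 147 ± 20.7 to 248 ± 18.2 CPM. Of 79 cytosolic ribosomal protein genes 2 rose and 20 fell, and 57 were not called, with a median of -0.21. None was called higher without EV replicate 3, and 1 without EV replicate 2 or EVsub replicate 1. These genes have many processed copies in the genome, so their counts are uncertain. RPL28 fell from 756 ± 74.7 to 500.2 ± 54.9 CPM (log2 change -0.60 with SE 0.16 and edgeR adjusted p = 0.00426). The count of ribosomal protein genes called lower was unstable. It was 48 under total-count scaling and with the 6 libraries alone, 35 with a mean of 50 counts, 3 without EVsub replicate 1, 7 without EV replicate 2, 12 without EV replicate 3 and 13 without EVsub replicate 3.

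Contractile genes rose. SRF, a transcription factor that responds to free actin, drives many of them. Of 35, 23 rose and none fell, with a median log2 fold change of 0.40. TAGLN, the actin-binding protein transgelin (ENSG00000149591, chromosome 11, 117199370 to 117207464, plus strand, overlapping 1 gene on each strand), stood at 21.7, 18.5 and 16.7 CPM in EV and at 86.5, 56.0 and 90.6 CPM in EVsub (log2 change 2.03 with SE 0.21 and edgeR adjusted p = 5.94e-07). CALD1, caldesmon, rose from 295 ± 45.7 to 543 ± 66.2 CPM, LIMA1, an actin-bundling protein, from 184 ± 20.2 to 329.9 ± 18.3 CPM, and TPM1, tropomyosin 1, from 281 ± 59.8 to 466 ± 15.03 CPM. Of 32 genes of ERK pathway output and immediate early response, 8 rose and 5 fell. These were 25% and 15.6%, against 20.2% and 17.8% of all genes tested. The count that rose was 5 under total-count scaling, with a mean of 50 counts, and without EV replicate 3 or EVsub replicate 1 or 3. The count that fell was 3 without EVsub replicate 1 or 3. FOSL1, the AP-1 subunit FRA1, stood at 12.2, 11.9 and 9.35 CPM in EV and at 56.3, 40.5 and 67.3 CPM in EVsub (log2 change 2.29 with SE 0.32 and edgeR adjusted p = 1.44e-05).

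More matrix genes fell than rose. Of 35 genes for collagens and their processing, 17 fell and 4 rose (median log2 fold change -0.33), and of 33 matricellular and elastic fibre genes 17 fell and 7 rose (median -0.56). Of the collagen list 2 were called higher without EV replicate 2 or 3 or EVsub replicate 1 or 3. FN1, fibronectin (ENSG00000115414, chromosome 2, 215360440 to 215436073, minus strand), stood at 3568, 4363 and 4464 CPM in EV and at 1504, 1498 and 1321 CPM in EVsub (log2 change -1.52 with SE 0.23 and edgeR adjusted p = 3.58e-05). POSTN, periostin, stood at 22.5, 20.04 and 15.2 CPM in EV and at 7.43, 13.7 and 6.71 CPM in EVsub (log2 change -1.08 with SE 0.26 and edgeR adjusted p = 0.00264). The EV libraries lay above the EVsub libraries for both genes, more narrowly for POSTN. VCAN, the proteoglycan versican, fell from 44.4 ± 7.18 to 14.3 ± 4.10 CPM, SPARCL1 from 13.1 ± 1.25 to 2.86 ± 0.524 CPM, MFAP4, a microfibril protein, from 26.5 ± 5.36 to 7.902 ± 1.29 CPM, and COL3A1, a fibrillar collagen, from 11.99 ± 0.496 to 5.49 ± 0.614 CPM. COL1A1, a chain of type I collagen, was not called (19.2 ± 5.27 against 18.8 ± 1.66 CPM, edgeR adjusted p = 0.948).

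Proteases, TGF-beta genes and adhesion genes were divided. Of 26 matrix proteases and inhibitors 8 rose and 8 fell, with 5 called lower without EV replicate 2. MMP2, a gelatinase, fell from 392 ± 67.4 to 181 ± 7.22 CPM. Of 31 TGF-beta and BMP genes 8 rose and 5 fell (25.8% and 16.1%, against 20.2% and 17.8% of all genes tested). The ligands moved apart: TGFB2 rose from 34.4 ± 6.23 to 72.3 ± 11.8 CPM, and TGFB3 fell from 24.4 ± 0.979 to 10.9 ± 1.28 CPM. FST, follistatin, an activin antagonist, rose from 2.58 ± 0.868 to 8.25 ± 0.307 CPM. Of 19 integrins 8 rose and 4 fell, with ITGA6 at a log2 fold change of 0.83 and ITGA9 at -1.05. Of 26 junction genes 8 rose and 4 fell, with F11R, a junctional adhesion molecule, at a log2 fold change of -0.55. With GC offsets 5 integrins and 5 junction genes were called higher, and 5 of each also without EVsub replicate 1. The integrins called lower were 2 without EV replicate 2 or EVsub replicate 2. The junction genes called lower were 1 without EV replicate 3 or EVsub replicate 2 and 2 without EVsub replicate 1. Of 18 Notch genes 3 rose and 4 fell (16.7% and 22.2%, against 20.2% and 17.8% of all genes tested). In that list 1 was called higher without EV replicate 3 and none without EVsub replicate 3. HEY1, a target of the pathway, stood at 77.3 ± 5.15 CPM in EV and 32.7 ± 1.79 CPM in EVsub. The median of the Notch list turned from -0.14 to 0.05 with GC offsets.

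**Figure D2:**
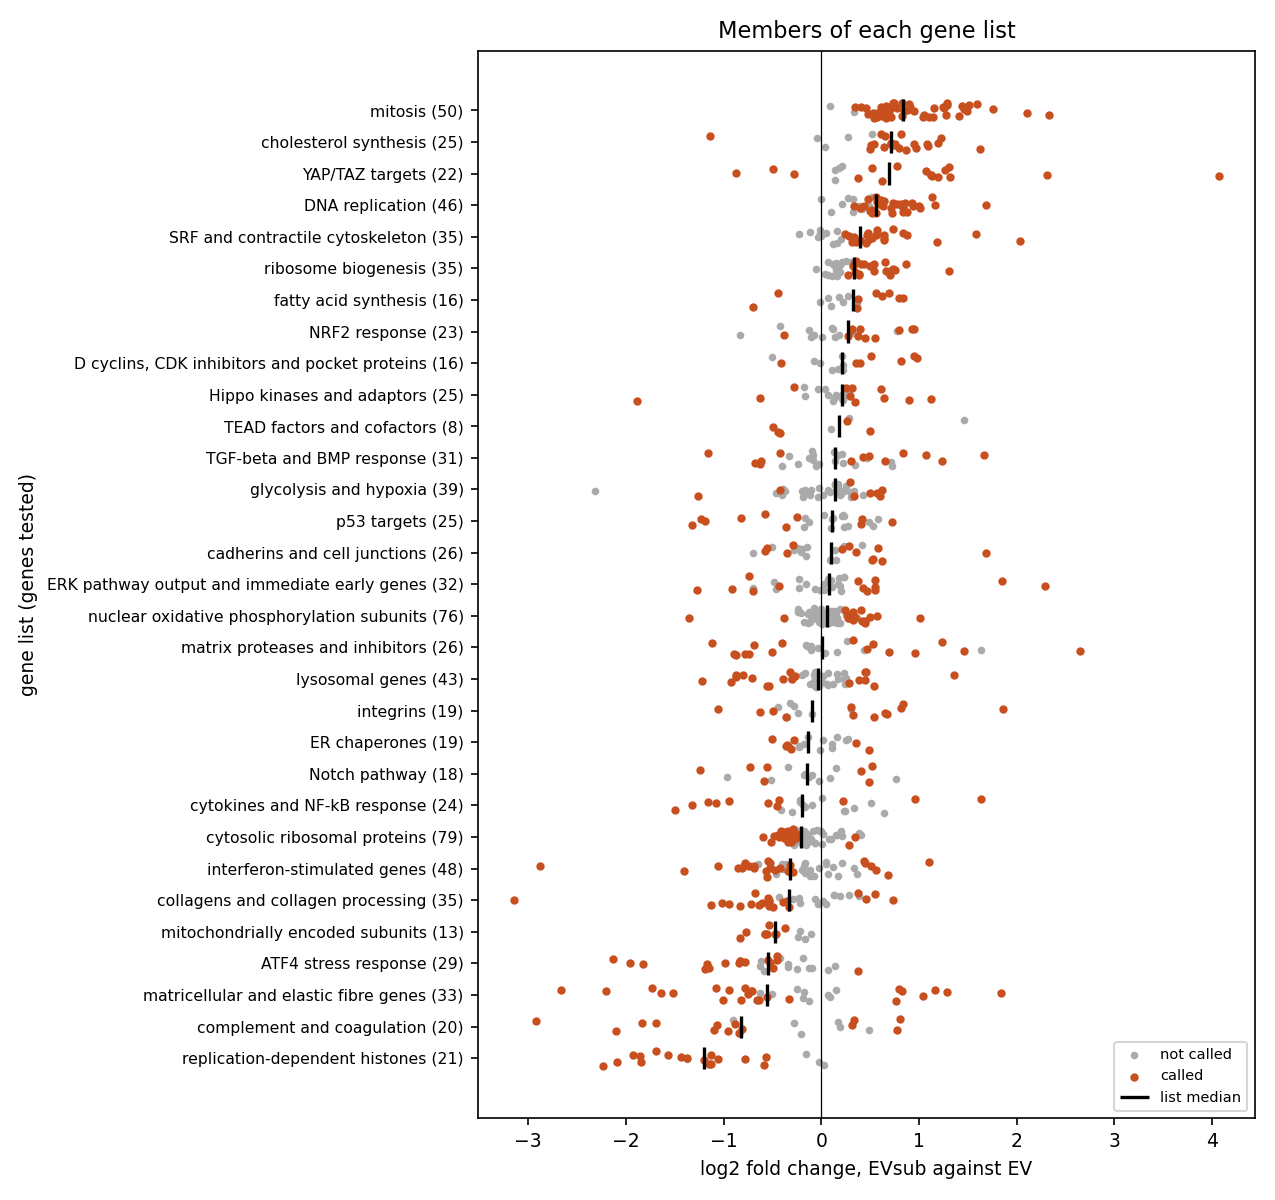
Log2 fold change of EVsub against EV for the tested members of each of 31 gene lists, 1 point per gene, orange where called and grey where not, with a black bar at the list median and lists in order of it. The lists of mitosis (median 0.83), cholesterol synthesis (0.72) and YAP/TAZ targets (0.70) stand at the top and that of replication-dependent histones (-1.2) at the bottom.

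Lipid synthesis genes rose. Of 25 cholesterol genes 20 were called higher and 1 lower, with a median log2 fold change of 0.72. HMGCS1, the cytosolic HMG-CoA synthase (ENSG00000112972, chromosome 5, 43287470 to 43313512, minus strand, overlapping 1 gene on the other strand), stood at 171, 149 and 150.4 CPM in EV and at 518, 470.1 and 462 CPM in EVsub (log2 change 1.63 with SE 0.25 and edgeR adjusted p = 4.48e-05). IDI1, an isomerase of the isoprenoid steps, rose from 34.8 ± 4.43 to 81.3 ± 7.45 CPM. MSMO1, a sterol oxidase, rose from 54.95 ± 2.42 to 125 ± 11.2 CPM. The exception was TM7SF2, a sterol reductase, which fell from 86.7 ± 17.8 to 39.4 ± 2.92 CPM. SREBF2, the factor that drives this pathway, stood at 308 and 298 CPM and was not called (edgeR adjusted p = 0.769). Of 16 fatty acid synthesis genes 7 rose and 2 fell, and 12 were called higher with GC offsets. SCD, stearoyl-CoA desaturase, rose from 779 ± 34.8 to 1393 ± 68.9 CPM, ME1, malic enzyme, from 11.4 ± 1.28 to 19.8 ± 1.09 CPM, and FASN, fatty acid synthase, from 299.9 ± 14.3 to 487 ± 17.3 CPM. MLXIPL, the glucose-responsive factor ChREBP, was called lower (-0.70), a call lost with GC offsets (-0.42).

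Glycolysis and redox lists followed. Of 39 glycolysis and hypoxia genes 6 rose and 2 fell, and 11 were called higher with GC offsets and 13 with the 6 libraries alone. Those called lower were 4 and 7, and 1 without EV replicate 1 or 2 or EVsub replicate 3. SLC2A1, the glucose transporter GLUT1, rose from 57.6 ± 7.28 to 88.9 ± 1.52 CPM, and lost the call without EV replicate 3 (edgeR adjusted p = 0.0546). EGLN3, a HIF prolyl hydroxylase, fell from 30.9 ± 2.43 to 12.98 ± 3.66 CPM. The next gene, TXNIP, is in neither list and was named by its rank among all genes that fell. TXNIP, an arrestin that restrains glucose uptake (ENSG00000265972, chromosome 1, 145992435 to 145996579, minus strand), stood at 551, 675 and 728 CPM in EV and at 152, 167 and 139.7 CPM in EVsub (log2 change -2.09 with SE 0.18 and edgeR adjusted p = 8.07e-08). Of 23 NRF2 response genes 10 rose and 1 fell, with 6 called higher under total-count scaling, 6 without EV replicate 2 and 5 without EVsub replicate 2. GCLM, a subunit of the enzyme that starts glutathione synthesis, rose from 17.6 ± 1.42 to 34.1 ± 1.75 CPM, and TXNRD1, thioredoxin reductase, from 318 ± 11.03 to 605 ± 17.5 CPM.

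Genes of the amino acid stress response that ATF4 drives fell. Of 29, 16 fell and 1 rose, with a median log2 fold change of -0.54. ASNS, asparagine synthetase (ENSG00000070669, chromosome 7, 97851677 to 97872542, minus strand, overlapping 1 gene on each strand), stood at 129.8, 103 and 237 CPM in EV and at 40.3, 40.2 and 39.8 CPM in EVsub (log2 change -1.96 with SE 0.27 and edgeR adjusted p = 1.25e-05). CHAC1, which degrades glutathione (ENSG00000128965, chromosome 15, 40952962 to 40956512, plus strand), stood at 5.80, 6.26 and 12.3 CPM in EV and at 1.71, 1.61 and 2.09 CPM in EVsub (log2 change -2.13 with SE 0.41 and edgeR adjusted p = 2.97e-04). EV replicate 3 was the highest library for both, while the EVsub libraries lay close together. Without EV replicate 3, 12 of the genes were called lower, and the log2 fold changes were -1.54 for ASNS and -1.72 for CHAC1 (edgeR adjusted p = 1.71e-04 and 0.0041). NUPR1, a stress protein, fell from 47.2 ± 22.2 to 13.2 ± 2.46 CPM. ATF4 itself, named after its value was seen, stood at 403 CPM in EV and 224 CPM in EVsub (log2 fold change -0.85, SE 0.09). Of 19 ER chaperone genes 2 rose (1 without EVsub replicate 1) and 6 fell, all with log2 fold changes between -0.50 and 0.49.

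More immune genes fell than rose. Of 48 interferon-stimulated genes 20 fell and 6 rose (median log2 fold change -0.33). With GC offsets 3 were called higher. Leaving out EV replicate 3 left 10 called lower, and leaving out EVsub replicate 1 left 13. IRF7, a factor that amplifies the interferon response, fell from 14.7 ± 2.98 to 7.04 ± 0.725 CPM, while SAMD9, an antiviral protein, rose from 19.7 ± 4.32 to 42.3 ± 9.66 CPM. HLA-B fell from 93.4 ± 22.2 to 51.8 ± 1.91 CPM, and as a gene with near-identical relatives its counts are uncertain. Of 24 cytokine and NF-kB genes 8 fell and 3 rose, with 4 called lower without EVsub replicate 1. VCAM1, an adhesion molecule for leukocytes, fell from 91.0 ± 4.28 to 32.3 ± 5.28 CPM, and TNFAIP3, an inhibitor of NF-kB, from 17.3 ± 2.55 to 6.92 ± 0.734 CPM. CXCL8, which encodes interleukin-8, was called higher (log2 fold change 1.64), a call lost with GC offsets (0.90, edgeR adjusted p = 0.161). Of 20 complement and coagulation genes 10 fell and 4 rose (median -0.83). C1S, a serine protease of complement, fell from 5.72 ± 1.49 to 2.7 ± 0.889 CPM, and SERPING1, the inhibitor of C1, from 28.9 ± 5.02 to 13.8 ± 1.40 CPM. C4A, a complement protein, stood at 3.54, 3.02 and 16.01 CPM in EV and at 1.64, 2.23 and 1.35 CPM in EVsub. It was called lower (log2 fold change -2.1), but not without EV replicate 3 (-0.94, edgeR adjusted p = 0.241), and it has a near-identical copy in C4B.

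Organelle genes were lower where the mitochondrion encodes them. Of the 13 mitochondrially encoded subunits 9 fell and none rose, with a median log2 fold change of -0.48. MT-ND6, a subunit of complex I, fell from 382 ± 21.4 to 214 ± 26.1 CPM. MT-CO2, a subunit of cytochrome c oxidase, stood at 7698, 8562 and 8518 CPM in EV and at 4885, 5144 and 4505 CPM in EVsub (log2 change -0.77 with SE 0.14 and edgeR adjusted p = 2.41e-04). The mitochondrial chromosome took 5.09% to 5.43% of the counts in EV and 3.20% to 3.59% in EVsub. The number called lower was 5 without EV replicate 2 and 4 without EVsub replicate 3. Of 76 nuclear subunits of the same complexes 15 rose and 2 fell, with 1 called lower without EVsub replicate 1. The share that rose, 19.7%, was near the 20.2% of all genes tested, and the share that fell was 2.63% against 17.8%. The median log2 fold change of the list was 0.06. NDUFA5, of complex I, rose from 29.5 ± 5.32 to 59.3 ± 8.94 CPM, SDHD, of complex II, from 78.03 ± 9.88 to 116 ± 9.55 CPM, and COX6C, of complex IV, from 61.5 ± 5.72 to 87.02 ± 2.94 CPM. Of 43 lysosomal genes 12 fell and 7 rose (27.9% and 16.3%, against 17.8% and 20.2% of all genes tested). Without EVsub replicate 1, 7 of them were called lower. GPNMB, a lysosomal and melanosomal glycoprotein, stood at 53.5, 57.5 and 67.9 CPM in EV and at 168, 129 and 163 CPM in EVsub (log2 change 1.36 with SE 0.17 and edgeR adjusted p = 3.92e-06), and GAA, acid alpha-glucosidase, fell from 51.1 ± 7.45 to 21.9 ± 1.55 CPM.

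Markers of other cell types were read over whole lists. Of 7 endothelial markers 5 were called lower in EVsub and none higher. KDR, the VEGF receptor VEGFR2 (ENSG00000128052, chromosome 4, 55078481 to 55125595, minus strand, overlapping 1 gene on the other strand), stood at 39.2, 54.3 and 39.4 CPM in EV and at 10.7, 14.2 and 8.59 CPM in EVsub (log2 change -2.0 with SE 0.23 and edgeR adjusted p = 2.17e-06). CDH5, the endothelial cadherin, fell from 42.7 ± 11.6 to 17.6 ± 3.20 CPM, TEK, an angiopoietin receptor, from 27.5 ± 1.93 to 13.3 ± 4.23 CPM, and ERG, an ETS factor, from 5.995 ± 0.595 to 1.83 ± 0.519 CPM. The summed level of the list was 115 to 154 CPM in EV and 43.98 to 67.3 CPM in EVsub, no defining marker was at 0 in any library, and its part in other results was not tested. PECAM1 held 150 to 199 counts a library and was not called. Of 13 mesenchymal markers 2 rose and 6 fell. PDGFRA, a growth factor receptor of mesenchymal cells, fell from 45.3 ± 2.95 to 19.8 ± 1.67 CPM. Of the tested markers, 1 of 8 for adipocytes, 1 of 6 for epithelial cells and 1 of 2 for neurons were called lower, and 1 of 6 for leukocytes in each direction. Their summed levels overlapped between the groups for adipocytes and leukocytes, and were 15.7 to 16.7 CPM in EV and 12.5 to 13.4 CPM in EVsub for epithelial markers.

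The protein-coding genes were then ranked by log2 fold change, taking those that were called, averaged 100 counts or more and had no overlap between groups. The first of those that rose was PSG4 (4.09), of a family of near-identical pregnancy-specific glycoproteins, so its counts are uncertain. SERPINB2, the plasminogen activator inhibitor PAI-2, rose from 1.41 ± 0.534 to 13.8 ± 6.37 CPM, and SPOCD1 from 0.718 ± 0.29 to 7.22 ± 1.45 CPM. ESM1, a secreted proteoglycan, rose from 3.12 ± 1.298 to 28.3 ± 10.4 CPM, and CPA4, a carboxypeptidase, from 13.2 ± 2.94 to 117 ± 18.1 CPM. IL7R, a subunit of the interleukin-7 receptor, rose from 15.6 ± 5.31 to 111 ± 23.4 CPM, and WNT7B, a WNT ligand, from 0.850 ± 0.351 to 7.04 ± 1.97 CPM. The first of those that fell was BMX, a TEC family tyrosine kinase that overlaps 2 genes on the other strand, which fell from 10.98 ± 2.57 to 0.924 ± 0.137 CPM (log2 change -3.57 with SE 0.30 and edgeR adjusted p = 5.66e-08). SLC14A1, a urea transporter, fell from 28.5 ± 8.90 to 3.17 ± 0.387 CPM, ADM2, a peptide hormone gene, from 7.66 ± 3.17 to 0.927 ± 0.0756 CPM, and TM4SF1 from 19.6 ± 3.03 to 4.03 ± 1.09 CPM. Without EV replicate 3 the log2 fold change of ADM2 was -2.63 in place of -3.01. C1orf115 fell from 17.2 ± 2.56 to 3.93 ± 2.12 CPM, and FNDC5, the precursor of irisin, from 38.5 ± 1.58 to 9.97 ± 2.28 CPM.

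The direction of a gene followed the GC content of its exons. Across the 19013 genes with a known value the log2 fold change fell as GC rose (Pearson r = -0.363, across genes, which are not independent replicates). The genes were put in 10 equal bins of GC. In the lowest bin, 23.1% to 38.9%, 55.7% were called higher and 3.00% lower, and their median log2 fold change was 0.48. In the highest bin, 61% to 74.4%, 4.10% were called higher and 35.3% lower, with a median of -0.29. The skew was read in each library as the median log2 level of the lowest bin less that of the highest, relative to the mean of the 6 libraries. It was -0.18, -0.43 and -0.54 in EV and 0.60, 0.27 and 0.27 in EVsub, so the groups did not overlap. The CAMTA1 libraries, the other sub-confluent group, lay between 0.36 and 0.52. Of the 15 libraries of the confluent constructs, 14 lay below 0, and YAP-TFE3 replicate 1 stood at 0.16. They spread widely, down to -1.154 in TAZ4SA replicate 1, so the skew also varied among confluent groups. The cause of the skew was not tested.

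**Figure D3:**
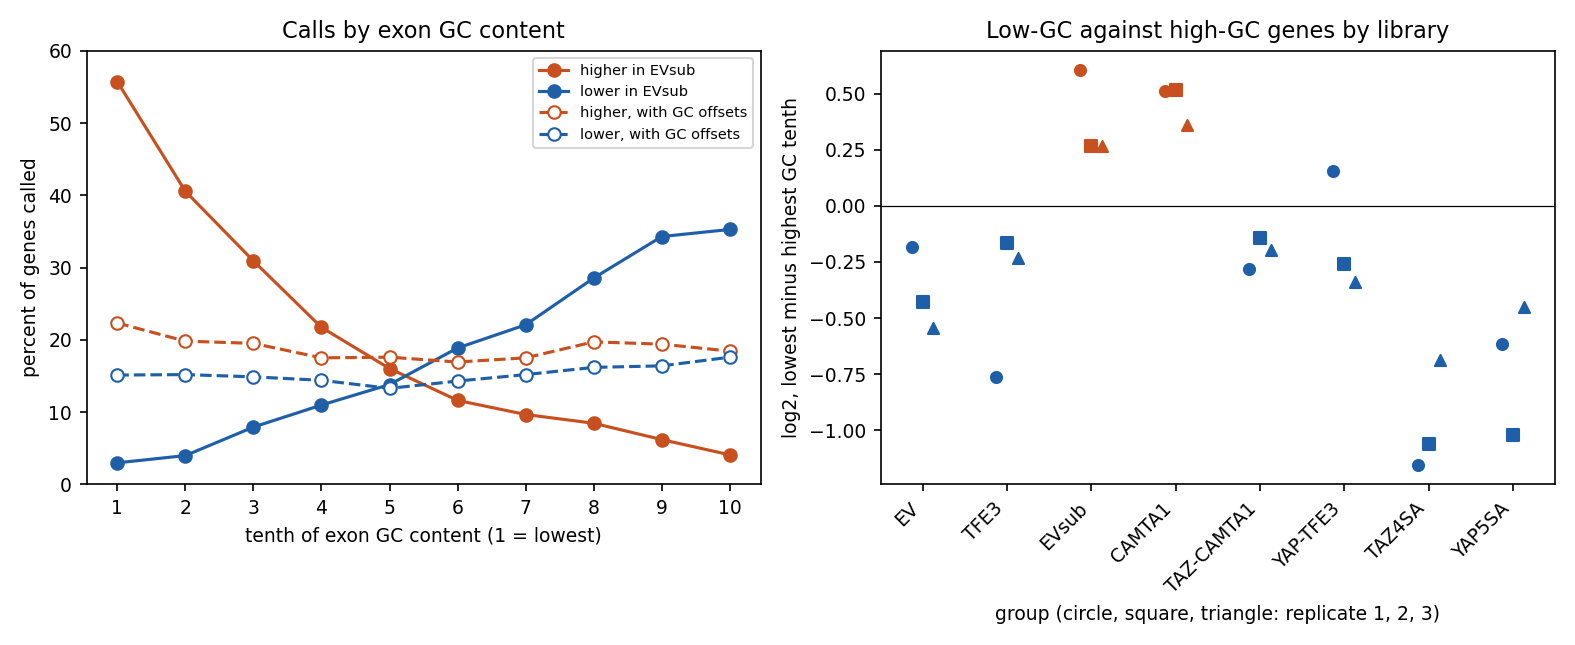
Left, percent of genes called higher (orange) or lower (blue) in EVsub in each of 10 bins of exon GC content, with filled points and solid lines for the edgeR fit and open points and dashed lines for the fit with GC offsets. Right, log2 level of the lowest less the highest GC bin in each of the 24 libraries by group, with sub-confluent groups in orange: EVsub and CAMTA1 stand between 0.27 and 0.60, and EV between -0.54 and -0.18.

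The comparison was repeated with gene-wise offsets that remove this trend within each library (r = 0.0112 after). It called 3617 genes higher (18.7%) and 2949 lower (15.2%). Of the genes called higher without offsets 66.1% were called higher with them, and of those called lower 66.7% were called lower. With offsets 50 of 50 mitotic genes, 39 of 46 replication genes, 28 of 35 contractile genes, 21 of 25 cholesterol genes and 16 of 22 YAP/TAZ targets were called higher, and 14 of 21 histone genes and 15 of 29 ATF4 response genes lower. The medians of the matrix lists moved to -0.16 for collagens and -0.31 for matricellular genes, with 14 and 16 called lower. CENPE was called with a log2 fold change of 1.73 in place of 2.33. The calls of TXN, the thioredoxin gene, and of UQCRB, a subunit of complex III, were lost, at 0.06 each.

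A second pair of groups differed in density and shares no library with EV or EVsub. CAMTA1 cells were collected sub-confluent and TFE3 cells 48 h after confluence, both 3 libraries from the same line, each carrying the full-length transcription factor of its name. Density, time at confluence, construct and any difference in preparation or sequencing cannot be told apart in this pair. The labels name no batch, so whether CAMTA1 shared one with EVsub, or TFE3 with EV, is not known. CAMTA1 against TFE3 gave 4824 genes higher (24.9%) and 4666 lower (24.1%). Of the genes higher in EVsub 86.5% were also higher there, or 70.4% of that comparison's own higher genes, and 0.331% were lower. Of the genes lower in EVsub 82.3% were also lower there, or 60.8% of its lower genes, and 0.464% were higher. The log2 fold changes of the 2 comparisons had a Pearson r of 0.789 across genes, both carrying the trend with GC (r = -0.33 for CAMTA1 against TFE3). By distance over all tested genes EVsub lay 62.3 ± 3.62 from CAMTA1 and 93.6 ± 9.01 from TFE3, and EV lay 53.8 ± 4.88 from TFE3 and 97.2 ± 9.28 from CAMTA1 (SD over 9 pairs).

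**Figure D4:**
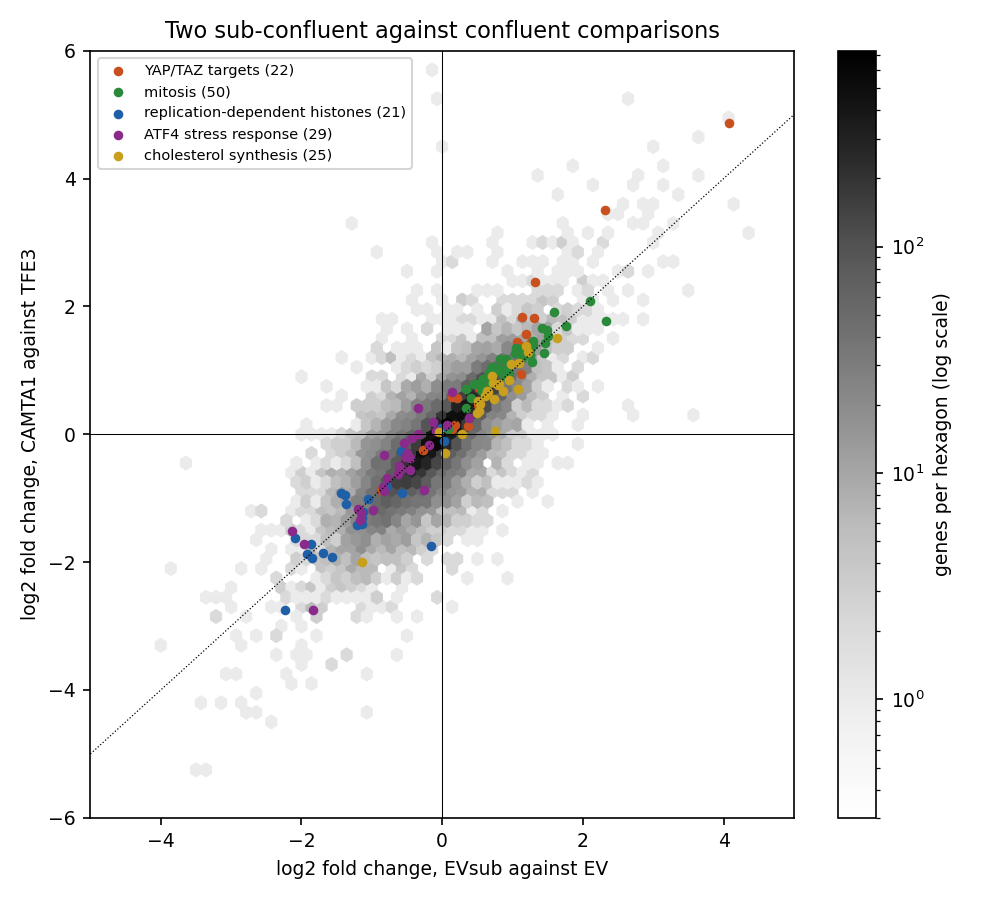
Log2 fold change of CAMTA1 against TFE3 (vertical) plotted on that of EVsub against EV (horizontal) for all tested genes as grey hexagons on a log colour scale, with the members of 5 lists as coloured points and a dotted line of equal change. ANKRD1 lies at 4.08 and 4.86 at the upper right, mitotic genes lie above 0 on both axes, and 3 genes fall outside the axes.

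The lists can be set side by side in the 2 pairs. Of 22 YAP/TAZ targets 15 were higher in CAMTA1 against TFE3 and 1 lower, with ANKRD1 at a log2 fold change of 4.86, CCN2 at 3.50 and CCN1 at 2.39, against 4.08, 2.31 and 1.32 in EVsub against EV. Mitotic genes were higher in 49 of 50 cases, replication genes in 38 of 46 and contractile genes in 29 of 35. Of 25 cholesterol genes 18 were higher and 2 lower, of 21 histone genes 16 were lower, and of 29 ATF4 response genes 13 were lower. FN1 had nearly one value in both, -1.53 and -1.52. Of the 13 mitochondrially encoded subunits 2 were called lower, with a median log2 fold change of -0.09, against 9 and -0.48 in EVsub against EV. Of 23 NRF2 genes 5 were higher and 4 lower (median 0.056), against 10 and 1 (0.27) in EVsub against EV. Of 43 lysosomal genes 3 were higher and 26 lower (median -0.43), against 7 and 12 (-0.034). GPNMB, which had risen in EVsub, was not called in CAMTA1 against TFE3 (-0.30). The difference between the pairs was not tested for any gene.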

How the data were processed

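Poly(A) RNA was sequenced with a TruSeq stranded kit, and the authors deposited unnormalized counts as whole numbers by Ensembl gene, in a table for each library, after alignment to hg38 within bcbio-nextgen. Deposited counts were not pooled. The study's methods name Salmon with tximport for gene counts beside a genome alignment, and do not say which route gave the deposited whole numbers. For this report groups and replicate numbers were taken from the titles. Symbols, positions, exon GC content and length came from GENCODE release 44, which held 56104 of the 60279 genes, and GC was known for 98.04% of genes tested.

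All 24 libraries were fitted with 1 mean per group in edgeR 4.0.16 (R 4.3.3), after TMM scaling, on 19393 genes whose mean over the 6 EV and EVsub libraries was 5 counts or more. The quasi-likelihood F test was used with a Benjamini-Hochberg threshold of 0.05. The study itself used DESeq2, run here as an alternative (1.42.0). An exact permutation test of 3 against 3 cannot give a p-value under 0.1. GC offsets were lowess fits (span 0.3) of each library's log2 CPM deviation on exon GC. CPM is given as mean ± SD, n = 3. The study made its triplicates by separate transductions followed by stable selection. Whether EV and EVsub replicates came from the same transductions is not given. Library pairs within a group differed by more than sampling noise.

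The members and the 31 gene lists and 6 marker lists were chosen with earlier results of these data known. Genes were named as 21 chosen genes, up to 4 per list and 12 risen and 12 fallen over all genes. Within each they were ranked by the size of the log2 fold change among genes that were called, averaged 100 counts or more and had no overlap between groups, and fewer were printed. Some named genes are not reported here. Alternatives were other scalings, filters, tools and samples, a replicate block, offsets for GC and length, thinned counts and fits without each library. Scripts were tested on simulated counts. Motifs were counted in RefSeq promoters (GRCh38.p14) matched by symbol, taking the first window listed for each gene.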

Additional observations from a re-analysis of the deposited data

How the results depend on the processing

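Over 11 alternatives the number of genes called in EVsub against EV kept within 1.5 times of 7377, from 6513 with a mean of 50 counts to 8429 with the 6 libraries alone, and without each library it ran from 5412 to 7048. DESeq2 called 7367. Of 158 named genes 156 kept their direction throughout, and 128 of the 150 called genes were called in every alternative. The log2 fold change of COL1A1 turned positive with the replicate block (0.048), GC offsets (0.21), GC and length offsets (0.20) and GC offsets with the block (0.29), and reached 0.17 without EV replicate 1 and -0.22 without EV replicate 3. That of WWTR1 turned negative in the 3 fits with GC offsets (-0.063, -0.066 with length and -0.062 with the block). The cause was not tested.

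Among lists, the number called higher under total-count scaling was 3 of the D cyclin list, 5 of the ERK list and 6 of the NRF2 list. A mean of 50 counts gave 5 in the ERK list, and 35 ribosomal protein genes lower. Under that filter 9 histone genes were tested, and all 9 were called lower. Total-count scaling and the 6 libraries alone each gave 48 ribosomal protein genes lower, and the latter 13 glycolysis genes higher. GC offsets, alone and with length, gave 1 of the TEAD list lower, and 5 junction genes, 5 integrins, 12 fatty acid genes and 11 glycolysis genes higher. With the replicate block as well these were 1, 5, 5, 12 and 12, and 5 cytokine genes were lower.

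Fits without a library ranged from 3 to 27 ribosomal protein genes, 10 to 19 interferon-stimulated genes, 7 to 13 lysosomal genes, 4 to 9 cytokine genes and 4 to 9 mitochondrially encoded subunits called lower, and from 3 to 6 of the D cyclin list, 5 to 9 of the ERK list, 5 to 8 of the NRF2 list, 5 to 7 junction genes and 5 to 9 integrins called higher.

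Replicate numbers 1 to 3 recur in both groups. Deviations of same-numbered libraries correlated at 0.164, 0.0627 and 0.0362, and EV replicate 3 correlated best with EVsub replicate 2, so the numbers were not taken to pair libraries. In EVsub against EV the replicate block gave 7510 calls, or 6803 with GC offsets added. Genes under a mean of 5 counts were not tested.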
